A study of Mus musculus with 37 samples.

Results

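Cells grown from osteosarcoma tumors of DKO mice were compared with cells grown from the bone marrow of young tumor-free DKO mice (yBM), in the second of 2 sets of RNA-seq libraries. The comparison takes 6 of the 37 libraries of the study, the 3 labelled DKO tumor and the 3 labelled DKO yBM, chosen by the names of their columns in the deposited table. In DKO mice, Osx1-Cre, which is active in progenitors committed to bone, deletes Trp53 and Wwox and turns on a tdTomato reporter from the Rosa26 locus. SKO mice carry the same Cre and reporter and lose Trp53 alone. The other 15 libraries of set 2, 3 each of control BM from WT mice, SKO yBM, SKO tumor, and marrow of tumor-bearing SKO and DKO mice (BMT), entered the fit for its estimate of spread and are shown as background. Marrow was flushed from femurs and tibiae, and marrow and tumor cells were cultured for several passages until tdTomato-positive cells dominated, so every library is of cultured cells. The ages of the set 2 mice and the bone from which each tumor came are not given in the sources used here. The labels do not say whether the 3 libraries of a group came from separate mice, so the spread behind each p-value may be technical in part.

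Levels were given as TPM, which scales read numbers to transcript length and library total and hides the sequencing depth. In the 6 libraries, 11746 to 12512 genes were at 1 TPM or more, and mitochondrial genes took 6.87% to 14.97% of TPM in yBM and 10.4% to 12.3% in tumor. Pearson correlations of log2(TPM + 1) across genes were 0.898 to 0.935 between a tumor and a yBM library, against 0.925 to 0.963 between yBM libraries and 0.928 to 0.943 between tumor libraries. The range between groups thus overlapped with the ranges within them.

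The deleted genes were read first. Trp53, which encodes p53, was at 3.584, 3.03 and 2.06 TPM in DKO yBM 1, 2 and 3 and at 3.69, 4.82 and 4.12 TPM in the DKO tumor libraries in the same order, far below the 35.9 to 74.9 TPM of control BM. Wwox, a tumor suppressor encoding an oxidoreductase with WW domains, was at 0.780, 0.167 and 0.0288 TPM in DKO yBM. In the libraries labelled DKO tumor it was at 5.23, 4.78 and 4.26 TPM, above the 2.97 to 4.05 TPM of control BM. All 3 libraries labelled DKO tumor thus went against their label for Wwox. The difference in Wwox did not pass the test (log2 fold change 2.16 ± 0.66, limma adjusted p = 0.471). Since these 3 libraries are the whole tumor group, no result can be given without them, and every direction below is that of the libraries labelled DKO tumor.

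Leukocyte genes were near 0 in both groups. The defining leukocyte marker Ptprc was at 0 to 0.0232 TPM in yBM and at 0.0177 to 0.0491 TPM in tumor. A list of 30 macrophage and other leukocyte genes summed to 18.3 to 28.8 TPM in yBM and 12.5 to 25.6 TPM in tumor, against 25166 to 30885 TPM in control BM. None of its 30 members passed the test. Osteoblast genes varied within each group. Runx2, the early bone transcription factor, was at 20.9 to 36.5 TPM in yBM and 12 to 31.5 TPM in tumor. Sp7, which encodes the factor whose promoter drives the Cre, was at 22.1, 37.7 and 1.54 TPM in yBM and at 23.1, 7.58 and 6.34 TPM in tumor. DKO yBM 3 stood apart from the other marrow cultures in Sp7, and also in the X-inactivation transcript Xist, at 16.6 TPM there and at most 0.0939 TPM in the other 5 libraries, with the Y-linked Ddx3y at 0 there and 8.27 to 25.3 TPM in the others. In bulk samples, fewer cells of a type and less RNA per cell cannot be told apart.

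Hox genes encode homeodomain transcription factors that record position along the body axis and the limb. They lie in clusters A to D, and genes with higher numbers are used further toward the tail and further out along the limb. Cultured stromal cells usually keep the Hox pattern of the place they came from. Hoxc10 and Hoxc11 are used in the hind limb.

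Each gene was tested on log2(TPM + 1) with limma over all 21 set 2 libraries, and fold changes below are on that scale with their SE, which understates the change of low genes. Of 14458 genes tested, 15 were called at an adjusted p below 0.05 by limma (0.104%), 9 higher in tumor (0.0622%) and 6 lower (0.0415%). At an unadjusted p under 0.05, 347 were higher (2.4%) and 384 lower (2.66%). Of the 38 gene lists used, 1 had a called member, that of the Hox genes. Of its 39 members, 29 were tested. Of those, 4 fell and 0 rose, and at an unadjusted p under 0.05, 9 were lower and 1 was higher.

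The genes that fell were Hoxa9, Hoxa10, Hoxc10 and Hoxc11. They are neighbours by number in clusters A and C, and the promoter table from RefSeq holds 2 of them. Their promoters are shown because these neighbours fell together. Each covers 250 bases before and 50 bases after a transcription start in GRCm38.p6, minus strand, with each CG pair in capitals. Hoxa9 is at chr6:52227321-52227620, and Hoxa10 has starts at chr6:52234890-52235189 and chr6:52240805-52241104.
Hoxa9: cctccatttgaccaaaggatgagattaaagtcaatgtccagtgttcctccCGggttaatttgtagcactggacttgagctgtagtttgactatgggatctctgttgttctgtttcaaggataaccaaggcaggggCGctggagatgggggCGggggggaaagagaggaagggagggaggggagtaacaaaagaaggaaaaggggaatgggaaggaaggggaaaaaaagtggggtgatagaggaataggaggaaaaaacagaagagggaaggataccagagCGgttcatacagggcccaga
Hoxa10, start nearer to Hoxa9: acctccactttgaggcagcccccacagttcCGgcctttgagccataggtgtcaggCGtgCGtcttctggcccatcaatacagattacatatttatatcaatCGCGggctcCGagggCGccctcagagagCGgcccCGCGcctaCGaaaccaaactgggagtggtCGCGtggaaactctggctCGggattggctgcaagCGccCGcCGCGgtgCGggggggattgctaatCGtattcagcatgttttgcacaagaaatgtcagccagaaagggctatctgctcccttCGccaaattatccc
Hoxa10, start farther from Hoxa9: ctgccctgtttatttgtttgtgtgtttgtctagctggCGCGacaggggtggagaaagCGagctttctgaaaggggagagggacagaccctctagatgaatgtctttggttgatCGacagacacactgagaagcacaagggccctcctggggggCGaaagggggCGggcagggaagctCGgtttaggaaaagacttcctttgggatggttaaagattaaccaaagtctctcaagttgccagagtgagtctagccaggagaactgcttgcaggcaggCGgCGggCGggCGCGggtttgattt
These windows hold 4, 21 and 12 CG pairs, on both strands alike since CG reads the same on each. The median over the 32851 promoters of the table is 7, and as many CG pairs or more stand in 68.6%, 24.8% and 39.6% of them. At least 1 CG pair stands in 94.6%. No entry for Hoxc10 or Hoxc11 was found in the table.

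Hoxc10 was at 40.8, 51.2 and 36.5 TPM in DKO yBM 1, 2 and 3. In DKO tumor 1 it was at 1.46 TPM, and it was listed at 0 in DKO tumor 2 and 3. Hoxc10 did not overlap between the groups (log2 fold change -5.01 ± 0.82, adjusted p = 0.0144, limma). Hoxa10 was at 36.6, 40.0 and 26.1 TPM in yBM and at 0.964, 0 and 0 TPM in tumor (-4.79 ± 0.89, limma adjusted p = 0.041). Hoxa9, which also acts in blood stem cells and leukaemia, was at 13.1, 16.5 and 11.2 TPM in yBM and 0.39, 0 and 0 TPM in tumor (-3.69 ± 0.67, limma adjusted p = 0.0331). Hoxc11 was at 10.4, 15.5 and 7.79 TPM in yBM and 0.165, 0 and 0 TPM in tumor (-3.49 ± 0.59, limma adjusted p = 0.0176). For all 4 genes, DKO tumor 1 was the 1 tumor library with a value above 0. The adjusted p sits close to the threshold. With any 1 of the 6 libraries left out, the 4 calls came down to 0, or to 1 (Hoxc10) without DKO tumor 1, with limma adjusted p of up to 0.2, unadjusted p of at most 0.000301 and log2 fold changes from -5.44 to -3.25.

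**Figure D1:**
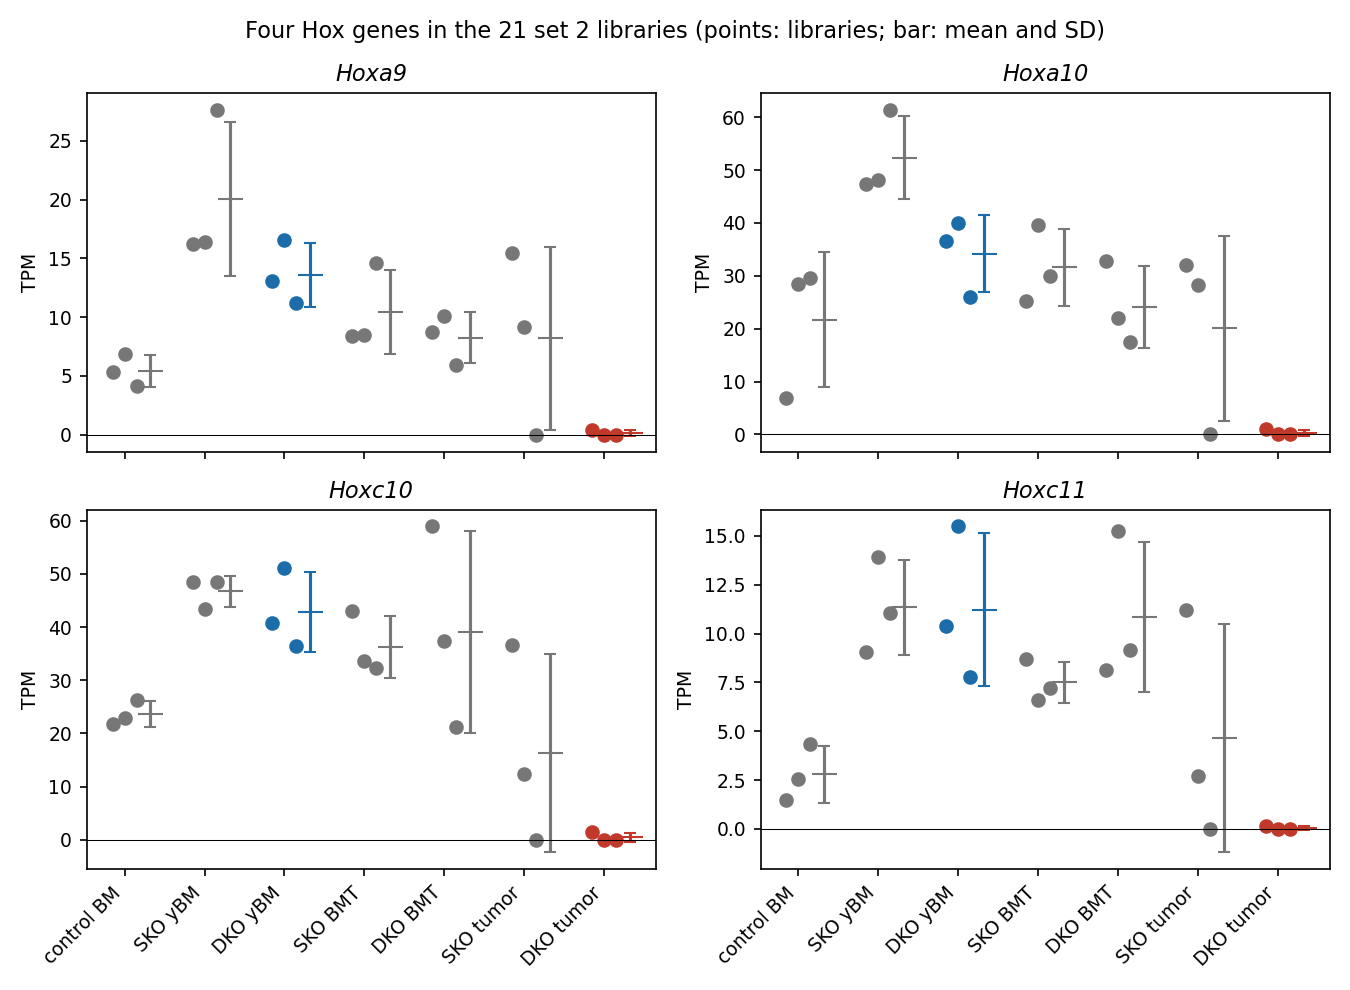
TPM of Hoxa9, Hoxa10, Hoxc10 and Hoxc11 (vertical axes) in the 21 set 2 libraries by group (horizontal axes). Points are libraries, bars are the mean and SD of 3, blue is DKO yBM and red is DKO tumor. The red points lie between 0 and 1.46 TPM, and 1 SKO tumor library also lies at 0.

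Sums over the Hox list describe the same libraries and are given without a test, since the 4 called genes make up most of the sum of the 16 genes numbered 9 to 13. Those 16 genes summed to 136, 162 and 93.6 TPM in yBM and to 31.7, 4.66 and 3.82 TPM in tumor. These sums did not overlap between the groups (130.5 ± 34.5 against 13.4 ± 15.9 TPM, SD, n = 3). The genes numbered 1 to 8 summed to 53.4, 53.04 and 24.8 TPM in yBM and to 125, 44.6 and 14.2 TPM in tumor, and these ranges overlapped (43.7 ± 16.4 against 61.3 ± 57.2 TPM, SD, n = 3). The low-numbered sum rests on DKO tumor 1. Without that library, 25 of the 29 tested Hox genes were below 0 (median log2 fold change -0.79), against 16 (median -0.16) with it, and without DKO tumor 3, 13 were below 0 (median 0.31). Of the 29 tested, 7 had every tumor library below every yBM library, against 7.8% of all genes tested, and 2 had every tumor library above, against 7.73%. The other 3 of the 7 were Hoxa11, Hoxc12 and Hoxc13, with adjusted p over 0.05. Hoxa11, needed for the zeugopod of the limb, was at 4.89, 9.73 and 0.497 TPM in yBM and was listed at 0 in all tumor libraries.

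The 3 tumor cultures differed in how much of the clusters they expressed. The genes named in this paragraph were chosen after their values were seen. DKO tumor 1 had the middle of clusters B and C, with Hoxc6 at 27.0, Hoxc8 at 19.1, Hoxb9 at 21.4 and Hoxc9 at 5.69 TPM. The DKO yBM ranges were 3.44 to 14.0, 0.0244 to 2.64, 0.0208 to 7.33 and 5.57 to 7.04 TPM. Other set 2 marrow reached higher levels of Hoxc6 (28.4 TPM) and Hoxb9 (29.8 TPM), both in DKO BMT 1. Hoxc9 was at 13.6 TPM in SKO BMT 3, while Hoxc8 was at most 6.69 TPM in other set 2 marrow. DKO tumor 1 and 2 shared low-numbered genes of clusters A and B, with Hoxb2 at 11.6 and 11.95, Hoxb4 at 2.59 and 3.88, and Hoxa2 at 3.37 and 3.28 TPM, while Hoxc6 was listed at 0 in DKO tumor 2. DKO tumor 3 had the fewest. Hoxb2, Hoxb3 and Hoxa2 were listed at 0 there, and 4 of the 39 Hox genes reached 1 TPM, against 21 in DKO tumor 1, 11 in DKO tumor 2 and 15 to 23 in yBM. Hoxc13, Hoxd8 and Hoxd9 were among those 4, and Hoxd8 and Hoxd9 were the 2 genes with every tumor library above every yBM library. Hoxd8 was at 0.222, 1.09 and 0 TPM in yBM and 2.37, 10.3 and 11.8 TPM in tumor (log2 fold change 2.53 ± 0.75, limma adjusted p = 0.452).

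**Figure D2:**
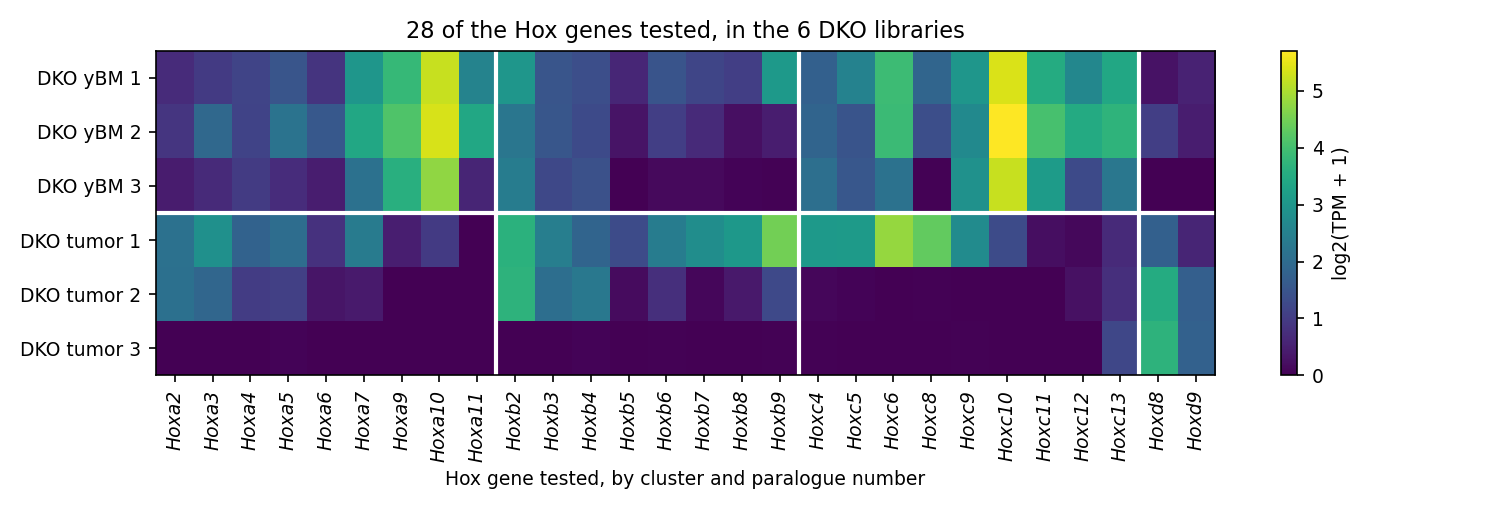
Heat map of log2(TPM + 1), from dark (0) to yellow, of 28 of the Hox genes tested (columns, by cluster A to D and number) in the 3 DKO yBM and 3 DKO tumor libraries (rows). The tumor rows are dark from Hoxa9 to Hoxa11 and from Hoxc10 to Hoxc12, where Hoxc10 reaches at most 1.46 TPM, and DKO tumor 3 is dark over nearly all of clusters A to C.

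The same 4 genes were followed through the other groups as background. Hoxc10 was at 21.8 to 26.3 TPM in control BM, 43.4 to 48.5 TPM in SKO yBM, 32.2 to 43.0 TPM in the libraries labelled SKO BMT and 21.1 to 58.9 TPM in DKO BMT, so each marrow group carried it. SKO BMT 2 and 3 had Wwox at 0.102 and 0.0857 TPM and so went against their label. Among SKO tumor libraries it was at 36.6, 12.3 and 0 TPM, and SKO tumor 3 was at 0 TPM for all 4 genes. SKO tumor 1 lay within the range of the marrow libraries for Hoxc10, and SKO tumor 2 lay below all of them. Levels near 0 were thus found in 3 of 3 DKO tumor libraries and in 1 of 3 SKO tumor libraries. The difference between the DKO and SKO contrasts did not pass the test for any of the 4 (limma adjusted p = 0.869 for each), so the Hox fall is not shown to be larger in DKO than in SKO.

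Other genes that mark body regions were read from a list of 50 limb, axial and craniofacial identity factors, of which 34 were tested. None passed the test. At an unadjusted p under 0.05, 4 were higher in tumor, En1, Foxf1 and Meis2 among them, against 2.4% of all genes. Pitx1, Eya1 and Shox2 were the 3 lower at that p, against 2.66% of all genes. En1, used in dorsoventral limb patterning and in skull bone, was at 0.839, 1.00 and 0.395 TPM in yBM and 14.7, 11.3 and 5.15 TPM in tumor (log2 fold change 2.62 ± 0.73, limma adjusted p = 0.348). It was higher in every tumor library than in any yBM library. Pitx1, which gives the hind limb its identity, was at 10.7, 24.5 and 0.563 TPM in yBM and 0.0298, 0 and 0.615 TPM in tumor, with DKO yBM 3 inside the tumor range. Other factors stood out in DKO tumor 3 and were chosen after their values were seen. Hand2, Pax3 and Lhx8, which act in branchial arch and neural crest derivatives, were at 27.4, 8.06 and 11.6 TPM there. These values are of a single library, and the site that this tumor came from was not tested.

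Among genes that rose, Dnmt3l encodes a partner of the DNA methyltransferases Dnmt3a and Dnmt3b that has no catalytic activity of its own and is best known from germ cells. It was at 0, 0.0431 and 0.0498 TPM in yBM and at 13.1, 6.6 and 10.7 TPM in tumor. The groups did not overlap (log2 fold change 3.39 ± 0.62, limma adjusted p = 0.0331). With 1 of the 6 libraries left out, its limma adjusted p was 0.0795 to 0.161. Dnmt3l was not silent in all other marrow. It was at 2.79 to 3.52 TPM in control BM, at 0.790, 5.34 and 2.32 TPM in DKO BMT and at 2.11, 0.0576 and 0.125 TPM in SKO yBM. SKO tumor was at 0.218, 0 and 6.32 TPM. Its partners differed by less than the spread between libraries, with Dnmt3a at 0.20 ± 0.53 and Dnmt3b at 0.28 ± 0.28 on the log2 scale (limma adjusted p = 1 for both).

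The remaining 10 of the 15 calls were the small nucleolar RNA gene Gm25636, Amd2, Hmga1b, another gene ID for Myl12b, and 6 genes or gene models without a known role, and most of them share sequence with another gene. For each gene, the share of its 31-base stretches found in another gene's transcripts was counted. Of the 15 called genes, 8 had at least 50% of them elsewhere, against 6.75% of the genes with transcripts to count. Reads of such genes can be assigned to either copy, so their values are uncertain. The Rps18 family is shown because the difference between its copies is a few bases. Rps18, which encodes a protein of the small ribosomal subunit, lies on the minus strand at chr17:33951999-33955677 of GRCm38 (GENCODE M21). Gm10260 lies at chr13:97760072-97760632, minus strand, and Gm11361 at chr13:28257528-28258134, plus strand. Bases 312 to 371 of the 459 coding bases are given, with capitals at the bases that differ from Rps18.
Rps18: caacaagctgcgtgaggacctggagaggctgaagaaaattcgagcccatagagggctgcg
Gm10260: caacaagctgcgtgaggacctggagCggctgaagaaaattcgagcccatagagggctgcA
Gm11361: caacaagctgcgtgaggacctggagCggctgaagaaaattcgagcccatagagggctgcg
Counted from 1 at the start of the coding sequence, Rps18 first, Gm10260 carries A337C and G371A in this stretch and Gm11361 carries A337C. Over the whole coding sequence they differ from Rps18 at 4 and 3 bases.

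Gm10260 was at 1.86, 1.12 and 3.43 TPM in yBM and 2014, 740 and 1688 TPM in tumor (limma adjusted p = 0.00637). Gm11361 was listed at 0 in all 3 yBM libraries and was at 1153, 546 and 892 TPM in tumor (limma adjusted p = 0.00141). Rps18 itself went the other way without passing the test, from 3572, 2777 and 4163 TPM to 424, 1689 and 441 TPM (log2 fold change -2.34 ± 0.70, limma adjusted p = 0.452). The sum of the 3 genes was 3574, 2779 and 4167 TPM in yBM and 3591, 2975 and 3022 TPM in tumor, so the sums overlapped while the split among copies did not. Gm10260 stood at 619 TPM or more in 8 of the 21 set 2 libraries, all 6 tumor libraries and SKO yBM 1 and 3, and at 7.12 TPM or less in the other 13. This split runs along the tumor and yBM groups of DKO mice, so copy pattern and group cannot be told apart in the 6 libraries. A covariate was made from this split, Gm10260 at 100 TPM or more, so it was built from 1 of the 15 calls. Loss of the calls among copies was thus largely fixed in advance. Within the 6 libraries it equals the group, so the adjusted contrast rests on SKO yBM, the only group with both patterns. With it, 1 of the 15 calls was left, Gm25636, which passed the filter on low values through DKO yBM alone. The 4 Hox genes had log2 fold changes of -5.16 to -3.06 and were not called. Their SE was larger (Hoxc10 1.52 against 0.82), so this fit cannot decide on them.

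**Figure D3:**
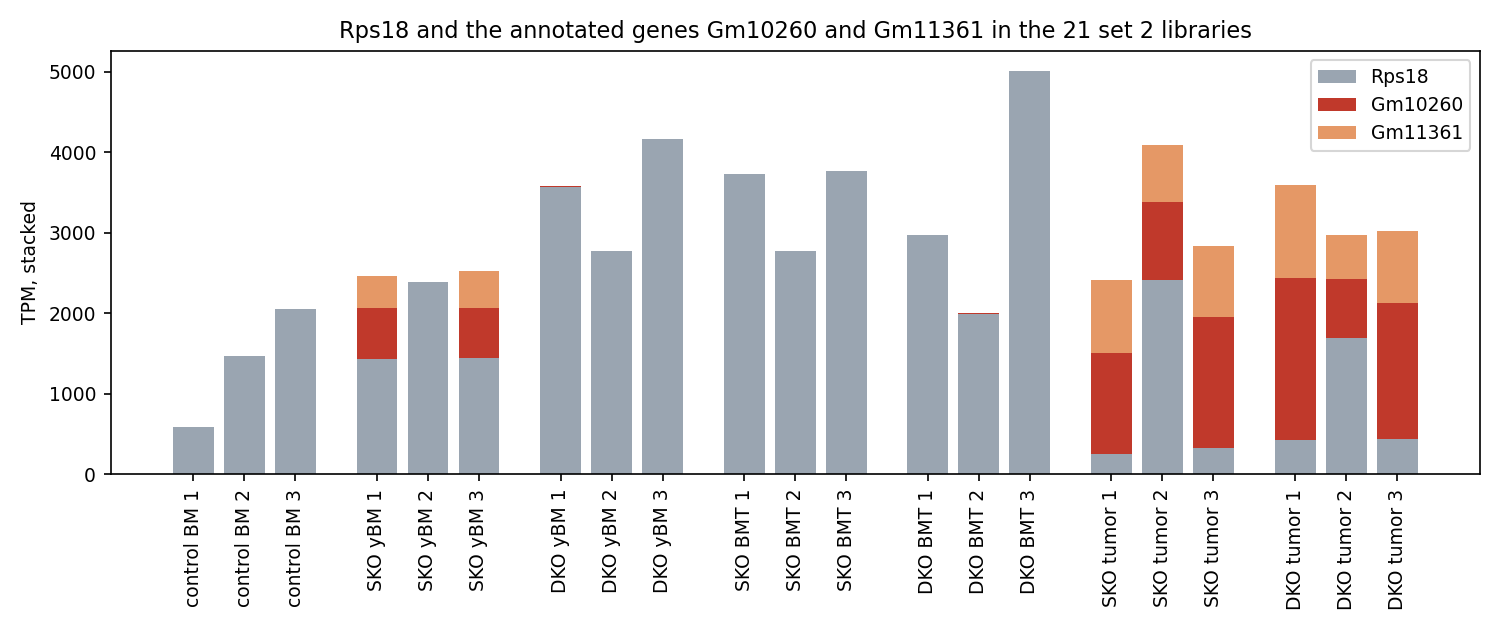
Stacked TPM (vertical axis) of Rps18, Gm10260 and Gm11361 in each of the 21 set 2 libraries (horizontal axis, by group). The 3 DKO yBM libraries are almost all Rps18, while in DKO tumor Rps18 holds 424, 1689 and 441 TPM of sums of 3591, 2975 and 3022 TPM.

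Copies with a parent gene were also called in other families, whose parent genes were named after their values were seen. Hmga1b, a near copy of the chromatin protein gene Hmga1, was at 0, 0 and 0.208 TPM in yBM and 96.7, 159 and 208 TPM in tumor (limma adjusted p = 0.0158). Its sum with Hmga1 overlapped between the groups, at 237, 233 and 431 TPM against 189, 503 and 383 TPM. Amd2, a near copy of Amd1, which encodes the S-adenosylmethionine decarboxylase of polyamine synthesis, was at 0.159, 0.0880 and 0.220 TPM in yBM and 18.9, 21.6 and 15.6 TPM in tumor (4.08 ± 0.38, limma adjusted p = 2.16e-05). Amd1 was at 43.0 to 62.4 TPM in yBM and 43.7 to 55.4 TPM in tumor. The regulatory myosin light chain gene Myl12b has 2 gene IDs, and the one called (ENSMUSG00000117098) was at 10.6, 1.75 and 0 TPM in yBM and 1130, 855 and 789 TPM in tumor (limma adjusted p = 0.0173). Here the sum of both IDs did not overlap between the groups, at 86.3, 87.5 and 83.2 TPM in yBM and 1331, 951 and 935 TPM in tumor. That sum leaves out Myl12a, which was at 1968, 1611 and 1874 TPM in yBM and lower, at 848, 1162 and 1067 TPM, in tumor. Of the 31-base stretches of the called ID, 97.2% occur in another gene, and 69.5% in the other Myl12b ID. A rise of the myosin light chain family as a whole is thus not shown. The sum of Amd1 and Amd2 overlapped, at 62.5, 56.8 and 43.2 TPM against 69.1, 77.0 and 59.3 TPM. In the other direction, Gm12191 was at 253, 259 and 166 TPM in yBM and listed at 0 in all tumor libraries (limma adjusted p = 0.011). All of its 31-base stretches occur in other genes, most of them (96.9%) in Rpl30-ps9.

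Gm25636 had the smallest p of all, at 10.6, 9.13 and 10.4 TPM in DKO yBM and listed at 0 in the 3 DKO tumor libraries (limma adjusted p = 1.18e-09). It was also listed at 0 in the other 15 libraries of set 2, so its value set DKO yBM apart from every group. Groups at 0 have no spread, and the SE (0.17) was pooled over them. The p of Gm25636 thus overstates the precision for an expressed gene. Gm25636 also passed the filter on low values through DKO yBM alone. Its test was therefore not independent of the values that let it in. AC154457.3 was listed at 0 in yBM and was at 38.3, 17.6 and 45.9 TPM in tumor (limma adjusted p = 0.00441). BC023719 was listed at 0 in yBM and was at 19.4, 9.45 and 20.5 TPM in tumor (limma adjusted p = 0.0141). Gm10263 was at 0, 0 and 0.817 TPM in yBM and 15.7, 6.23 and 11.1 TPM in tumor (limma adjusted p = 0.00419). Gm11361, the called Myl12b ID, Hmga1b, AC154457.3 and BC023719 split the set 2 libraries as Gm10260 did. In SKO yBM 1, 2 and 3, Gm11361 was at 399, 1.49 and 464 TPM and BC023719 at 13.8, 0 and 11.5 TPM. These higher calls thus followed a shared pattern of libraries and are not separate results.

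Beyond the calls, the genes of smallest p whose groups did not overlap were read as values that did not pass the test. Thy1, a surface glycoprotein of stromal cells, was at 4.12, 19.4 and 21.4 TPM in yBM and 1024, 471 and 989 TPM in tumor (log2 fold change 5.88 ± 1.64, limma adjusted p = 0.348). Igfbp6, which binds IGF-II, was at 2.02, 5.45 and 1.37 TPM in yBM and 143, 73.7 and 188 TPM in tumor (5.14 ± 1.29, limma adjusted p = 0.278). These differences were large but the libraries within a group also varied widely. On the lower side, Itih2, of a family that binds hyaluronan, was at 20.8, 51.9 and 95.0 TPM in yBM and 1.17, 2.71 and 3.04 TPM in tumor (-3.91 ± 0.79, limma adjusted p = 0.0809). Eya2, a transcriptional coactivator and phosphatase, was at 54.2, 88.1 and 103 TPM in yBM and 4.93, 0.788 and 6.23 TPM in tumor (-4.24 ± 0.90, limma adjusted p = 0.105). Further uncalled genes of this kind were Tcfl5, Kcnab1, Snord43 and Avpr1a on the higher side and H2-T22, S100a1, Ephb6, Elovl7 and Rab3b on the lower side.

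**Figure D4:**
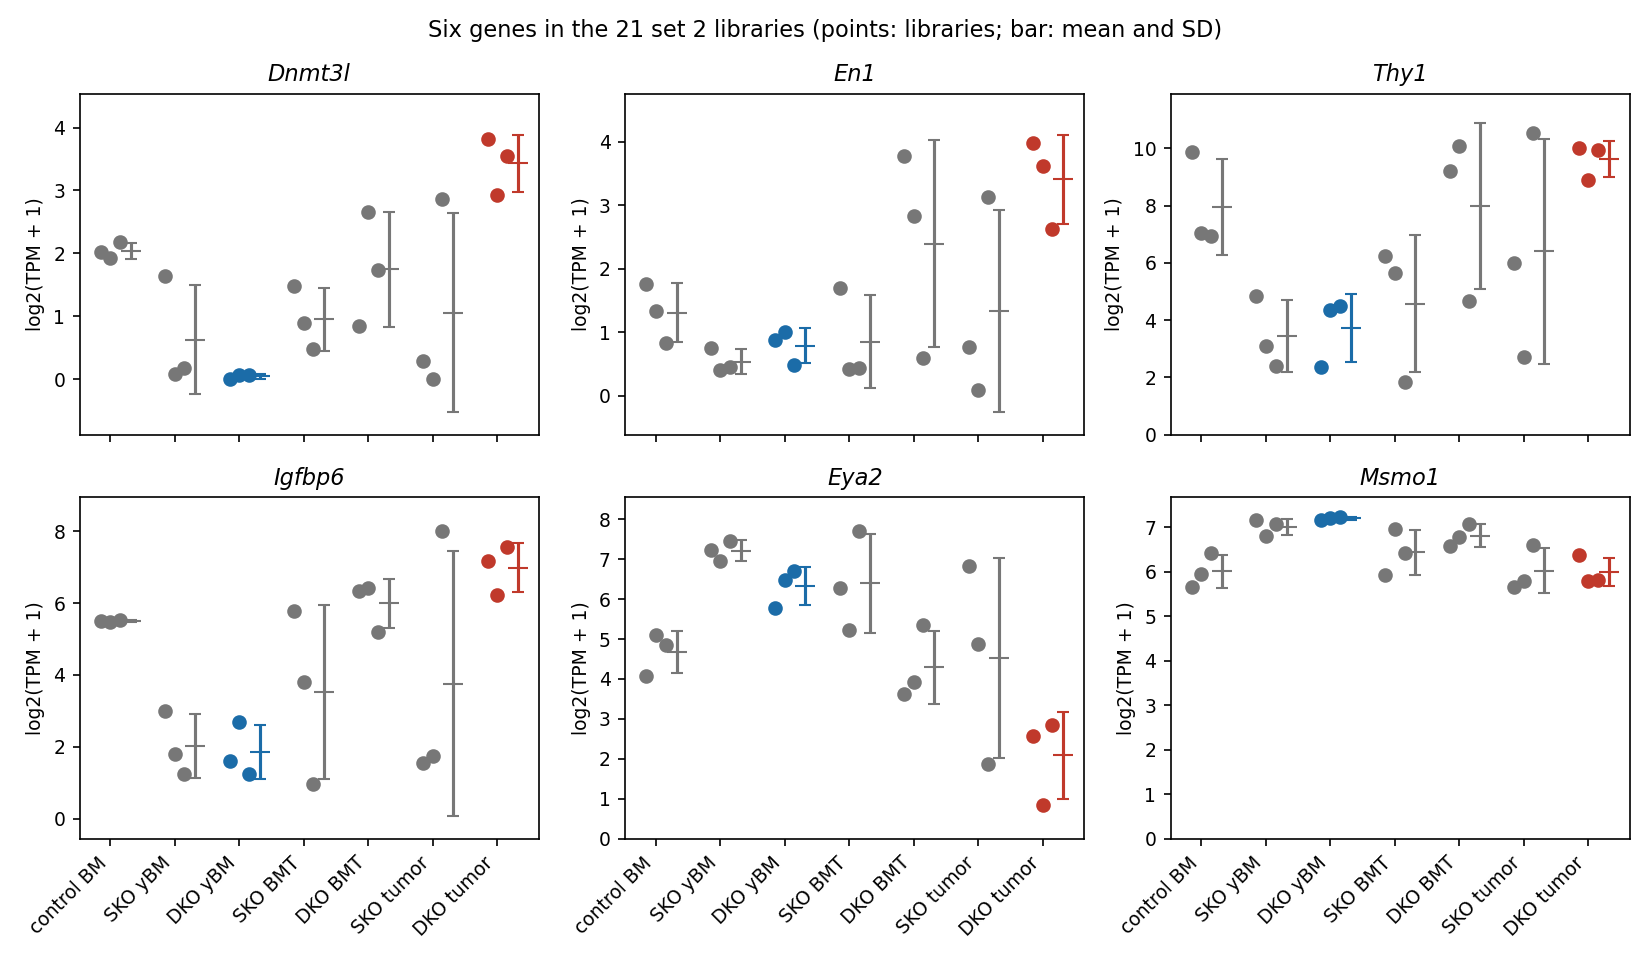
log2(TPM + 1) of 6 genes (vertical axes) in the 21 set 2 libraries by group (horizontal axes), with points for libraries and bars for the mean and SD of 3. The DKO yBM and DKO tumor points do not overlap for Dnmt3l, at most 0.0498 TPM against at least 6.6 TPM.

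The study examined Myc and growth genes, so these were read in the same comparison. Myc, the growth-promoting transcription factor, was at 65.3, 51.5 and 67.0 TPM in yBM and 168, 113 and 45.9 TPM in tumor. DKO tumor 3 lay below all yBM libraries and the other tumor libraries above them (log2 fold change 0.65, 95% interval -0.67 to 1.96, limma adjusted p = 1). Mcm7, a subunit of the replicative helicase, was at 101, 85.1 and 101 TPM in yBM and 121, 129 and 57.5 TPM in tumor (0.02, interval -1.0 to 1.03). For Rrp9, of ribosomal RNA processing, the interval was -0.78 to 1.08, for Rcc1, the exchange factor of Ran, -0.93 to 1.61, and for Ran, the nuclear transport GTPase, -0.85 to 0.58. Mylk, the myosin light chain kinase, and Nid2, a basement membrane protein, had wider intervals, of -3.59 to 2.27 and -1.50 to 3.20. None of these 7 passed the test.

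Gene lists were described by counts and medians beside those of all 14458 genes, whose median log2 fold change was 0.02, with the middle 50% from -0.24 to 0.31 and 7511 above 0. No member of the lists in this and the next paragraphs passed the test. All 24 cholesterol synthesis genes had values below 0, with a median of -0.90 (23 below 0 without DKO tumor 2 or 3), and 14 were lower at an unadjusted p under 0.05, against 2.66% of all genes. Msmo1, of the sterol demethylation steps, was at 142, 146 and 149 TPM in yBM and 81.4, 54.8 and 55.1 TPM in tumor (-1.20 ± 0.31, limma adjusted p = 0.29). Fdft1, which commits the pathway to sterols, was at 63.6, 63.1 and 68.1 TPM in yBM and 46.2, 24.6 and 24.6 TPM in tumor (-1.07 ± 0.28, limma adjusted p = 0.29). Fdps, which makes farnesyl pyrophosphate, was at 344, 330 and 508 TPM in yBM and 240, 112 and 116 TPM in tumor (-1.40 ± 0.37, limma adjusted p = 0.306). The 3 genes did not overlap between the groups. In SKO libraries all 24 were also below 0, with a median of -0.85 beside -0.34 for all genes, and in set 1, 17 of 23 were above 0, with a median of 0.17 beside 0.18 for all genes.

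The mitosis, DNA repair and replication lists lay above the all-gene median, by less when DKO tumor 2 was left out. Cyclins and CDK inhibitors lay close to it, with 16 of 27 above 0 (median 0.04). Their median ran from -0.09 without DKO yBM 3 to 0.18 without DKO tumor 3. Of 30 mitosis and kinetochore genes, 29 were above 0 (median 0.36), but 19 without DKO tumor 2 and 17 with presence of Ddx3y as a covariate. Of 42 DNA repair genes, 36 were above 0 (median 0.26), and of 40 replication origin and helicase genes, 29 (median 0.20). Without DKO tumor 2 these were 24 (median 0.10) and 21 (median 0.026), and with Ddx3y as a covariate 29 (median 0.10) and 19 (median -0.07). Without DKO yBM 3 the mitosis and replication medians were 0.23 and 0.08, and without DKO tumor 3 the DNA repair and replication medians were 0.42 and 0.41. Chek1, a kinase of the replication checkpoint, was at 9.18, 18.4 and 2.97 TPM in yBM and 27.1, 35.5 and 31.8 TPM in tumor (1.81 ± 0.68, limma adjusted p = 0.728). The 11 tested genes of the Myc network had a median of 0.27, or -0.05 without DKO tumor 1. The 40 nucleolar and ribosome assembly genes had a median of -0.053, from -0.23 without DKO tumor 2 to 0.29 without DKO tumor 3, and the 37 tested p53 targets one of 0.08, from -0.013 without DKO tumor 1 to 0.12 without DKO yBM 2. Of 26 glycolysis genes, 18 were below 0 (median -0.30), or 15 (median -0.08) without DKO yBM 3 and 16 (median -0.11) without DKO tumor 3.

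Matrix genes lay mostly above 0. Of 42 matricellular and proteoglycan genes tested, 33 were above 0 (median 0.96), and 15 had every tumor library above every yBM library, against 7.73% of all genes. Ltbp2, a protein of elastic microfibrils, was at 3.57, 3.20 and 7.35 TPM in yBM and 126, 21.9 and 229 TPM in tumor (4.01 ± 1.49, limma adjusted p = 0.728). Efemp1, a fibulin, was at 25.3, 6.78 and 2.77 TPM in yBM and 135, 55.3 and 215 TPM in tumor (3.69 ± 1.41, limma adjusted p = 0.738). Without DKO yBM 3 or DKO tumor 1 the matricellular median was 0.50 or 0.55. Of 18 basement membrane genes, 16 were above 0 (median 0.82), and of 25 collagens, 21 (median 0.56), or 16 (median 0.12) without DKO tumor 1. The 15 markers of endothelial cells, which also make basement membrane, summed to 19.5 to 31.8 TPM in yBM and 65.1 to 118 TPM in tumor, 4 of them passed the filter and 0 were called. All 4 were above 0 (median 1.07), with Eng at 3.42 to 24.7 TPM in yBM and 36.1 to 91.2 TPM in tumor. Eng was also among the stromal markers used. Of the 11 that did not pass, Cldn5 was listed at 0 in all set 2 libraries. Cdh5, Vwf and Kdr were at most 1.58, 1.05 and 0.742 TPM in any of them. Tek and Emcn had the highest levels, at most 12.3 and 6.56 TPM. Their part in the matrix values was not tested. In the IGF system the median was 0.59 over 16 genes, but 0.025 without DKO tumor 1, 0.37 without DKO yBM 3 and 0.95 without DKO yBM 2. In the BMP, activin and TGF-beta list it was 0.52 over 29, or 0.17 without DKO yBM 3. Bmp4, a bone-inducing ligand, was at 296, 432 and 107 TPM in yBM and 9.65, 44.98 and 32.8 TPM in tumor (-3.24 ± 0.99, limma adjusted p = 0.471).

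Bone and stromal lists were mixed. Of 23 osteoblast genes, 14 were below 0 (median -0.26), and this direction rested on single libraries. The median was 0.064 without DKO yBM 2, 0.0086 and -0.42 without DKO tumor 3 and 1, -0.034 without DKO tumor 2, and -0.16 and -0.81 without DKO yBM 1 and 3. Spp1, which encodes the bone matrix protein osteopontin, was at 338, 652 and 507 TPM in yBM and 85.4, 195 and 20.1 TPM in tumor (-2.76 ± 1.03, limma adjusted p = 0.728). Alpl, the alkaline phosphatase of mineralizing cells, was at 325, 391 and 57.1 TPM in yBM and 201, 10.3 and 3.99 TPM in tumor, with overlap between the groups. Fabp4, a fatty acid carrier of adipocytes, was at 248, 275 and 58.2 TPM in yBM and 8.75, 10.8 and 59.9 TPM in tumor. The mesenchymal stromal list had a median of 0.23 over 30 genes, from 0.045 without DKO yBM 3 to 0.45 without DKO yBM 2, and the adipocyte list one of 0.05 over 16, from -0.065 without DKO tumor 1 to 0.16 without DKO yBM 1. Of 19 MHC class I and antigen presentation genes, 14 were below 0 (median -0.48), or 10 (median -0.16) without DKO yBM 3. Its median was -1.08 without DKO tumor 1, -0.15 without DKO tumor 2 and -0.20 without DKO tumor 3. Within that list H2-T22 was at 39.8, 32.5 and 79.8 TPM in yBM and 6.46, 15.2 and 3.38 TPM in tumor. The classical gene H2-K1 did not fall with it, at 127, 135 and 191 TPM in yBM and 482, 133 and 189 TPM in tumor. Only DKO tumor 1 lay above the yBM libraries for H2-K1.

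**Figure D5:**
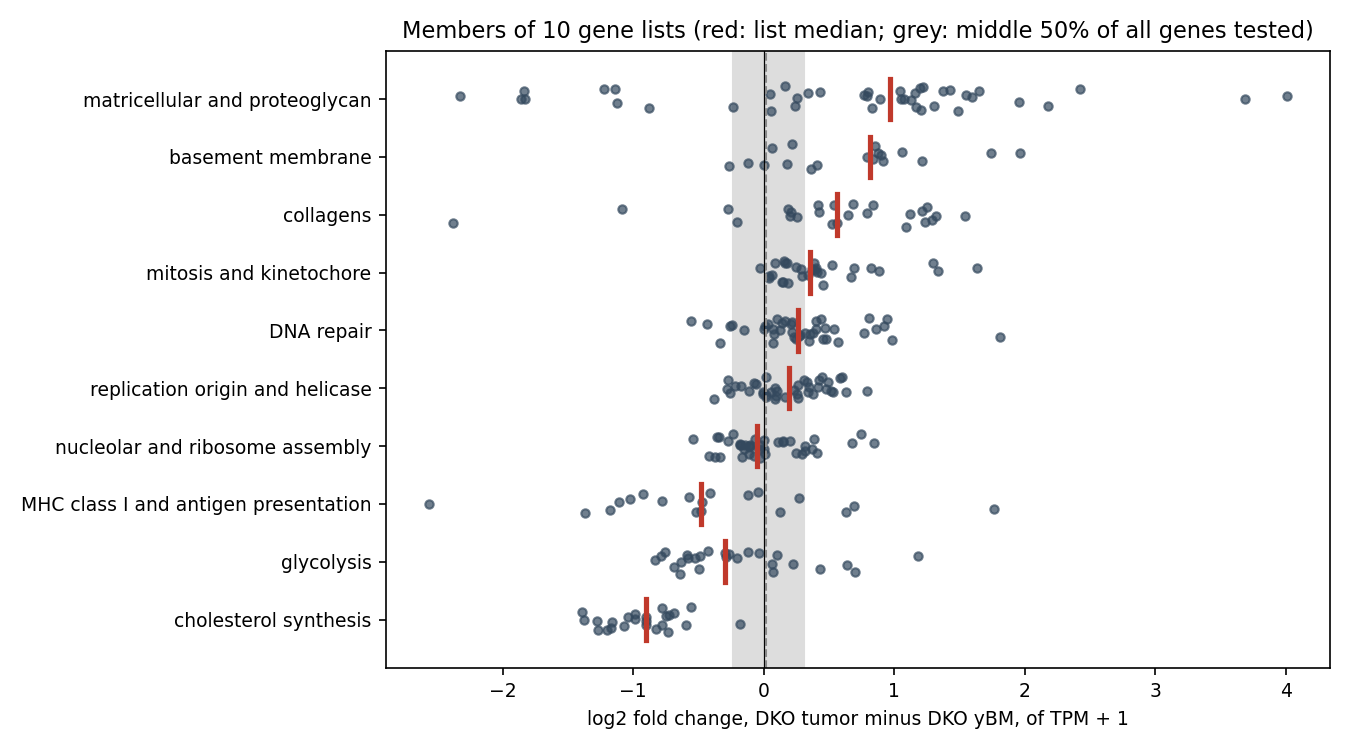
log2 fold changes, DKO tumor minus DKO yBM, of TPM + 1 (horizontal axis) for the members of 10 gene lists (rows). Points are genes, red marks are list medians and the grey band is the middle 50% of all genes tested, -0.24 to 0.31. The cholesterol synthesis points all lie below 0, around a median of -0.90.

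The same comparison was read in SKO mice, in which both groups lack Trp53. Since the libraries labelled DKO tumor had Wwox at control levels, the DKO and SKO contrasts do not set apart a Wwox effect. Between SKO tumor and SKO yBM, limma called 0 of 14458 genes (0%), while 958 had an unadjusted p under 0.05. For the difference between the DKO and SKO contrasts, limma called 2 genes (0.0138%), Gm25636 on the lower side (0.00692%) and Amd2 on the higher side (0.00692%), with 485 at an unadjusted p under 0.05. Gm25636 was tested only because DKO yBM carried it. For Amd2, the 3 SKO yBM libraries were at 10.4, 13.8 and 19.6 TPM and the SKO tumor libraries at 12.8, 5.09 and 10.6 TPM, so the SKO groups overlapped (difference between contrasts 4.70 ± 0.54, limma adjusted p = 0.000503). Dnmt3l differed between contrasts by 2.96 ± 0.87 on the log2 scale without passing the test (limma adjusted p = 0.869).

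Set 1 gives the contrast by label in other libraries, 3 DKO tumor and 6 DKO yBM, fitted apart from set 2. Wwox was at 2.46 to 4.04 TPM in 5 of these yBM libraries and at 2.92 TPM in tumor 1, within the 0.922 to 4.26 TPM of set 1 control BM, so these 6 libraries went against their label. Of 14404 genes tested, limma called 19 (0.132%), 7 higher (0.0486%) and 12 lower (0.0833%). The leukocyte list summed to 1130 to 19884 TPM in set 1 yBM and to 4541, 15.9 and 29.4 TPM in set 1 tumor, and the leukocyte genes Rac2, Lat2 and Clec12a were among the lower calls. The part of these cells in the set 1 values was not tested. The 4 Hox genes were present in most set 1 tumor libraries. Hoxc10 was at 30.2, 0.0654 and 45.6 TPM in tumor and 14.8 to 44.1 TPM in yBM, and Hoxa10 was at 11.3, 0.0770 and 30.2 TPM in tumor and 13.3 to 21.5 TPM in yBM. Only set 1 tumor 2 was near 0 for these 4 genes, and none passed the test there (limma adjusted p = 0.379 to 0.557). Dnmt3l was at 2.06, 2.41 and 0.0410 TPM in set 1 tumor and 0.272 to 5.42 TPM in yBM, with overlap (-0.33 ± 0.55, limma adjusted p = 0.785). Of the 15 set 2 calls, 12 had a value in set 1 and 5 of them had the same sign (41.7%), against 55.0% of the 13585 genes with a value in both sets.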

How the data were processed

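RNA-seq of cultured mouse cells was read from the deposited table of TPM values in 37 libraries, of which 6 are compared here. The authors made stranded mRNA libraries and, per the submitters' processing notes, trimmed reads with Trim Galore 0.6.1 (the paper gives another version), checked them with FastQC and estimated TPM with Salmon on mm39 (DESeq2 is also named). TPM keeps no depth, so the precision is unknown. The deposited TPM were tested as log2(TPM + 1) with limma 3.58.1 in R 4.3.3, with a mean-dependent variance prior and Benjamini-Hochberg adjustment, over all 21 set 2 libraries in 7 groups of 3, for genes at 1 TPM or more in at least 3 libraries. Calls had an adjusted p under 0.05. The 3 control BM columns were matched to their group only. Of 51123 gene IDs, 48246 matched a symbol table. The named genes were Trp53, Wwox, 7 genes named in the study, the 12 largest rises and falls that did not overlap and reached 5 TPM on average (filled with uncalled genes of smallest p, gene models and sex-linked genes left out), and list members of smallest p. The members and the 38 lists were chosen with earlier results of these data known, and the lists were written from general knowledge. Sequences came from RefSeq promoters (GRCm38.p6) and GENCODE M21 transcripts (GRCm38), another build than the authors', and shared 31-base stretches were counted in the latter. Same-numbered libraries did not deviate together (r = -0.0551 to -0.0135), so numbers were not used as pairs. Code was tested on simulated data. Alternatives covered the pseudocount, filter, scaling, variance prior, libraries in the fit and left-out libraries, and 4 more (copy pattern, Ddx3y, control BM, shared stretches) were chosen after seeing the data. Some genes that the rule would name are not reported here.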

Additional observations from a re-analysis of the deposited data

Results flagged for a closer look

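The difference between the DKO and SKO contrasts (tumor minus yBM, log2 scale) passed the test for 2 genes in limma. It was -3.46 for Gm25636, which was listed at 0 in every set 2 library outside DKO yBM, and 4.70 for Amd2, a near copy of Amd1. For Gm25636, the spread was pooled over these groups at 0, which understates it. The gene passed the filter on low values through DKO yBM alone.

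In groups of 4 to 10 libraries, all in set 1, 1 library stood far from the others in 1 of 14 cases tested, where chance gives about 1 in 20. Hoxa9 was at 24.9 TPM in set 1 control BM 2.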

How the results depend on the processing

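Of the 15 calls, the count was 9 with a pseudocount of 0.1, 7 with no filter on low values and 53 (36 higher, 17 lower) when the fit held the 6 compared libraries alone. Leaving out 1 library gave 4 to 10 calls: 7 without DKO yBM 1, 6 without DKO yBM 2, 9, 8 and 4 without DKO tumor 1, 2 and 3. Of the alternatives chosen after seeing the data, the copy pattern as a covariate gave 1, the fit without control BM 7 and the genes under 50% shared stretches 4. The other settings gave 13 to 20. All 4 Hox genes stayed below 0 in every setting, at -7.41 to -3.06 on the log2 scale, and 0 to 4 of them were called. With no filter on low values, 0 were called (limma adjusted p up to 0.141), and likewise without control BM (up to 0.0983). Dnmt3l was not called in these settings either (limma adjusted p = 0.13 and 0.0988). With the replicate number as a block, 10 calls were left for the DKO comparison, 1 of them a Hox gene, and 3 for the difference between the DKO and SKO contrasts. Same-numbered libraries share only a number.

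For the difference between contrasts, 2 in the reported fit, the count was 4 without the filter, 7 when the fit held the compared libraries alone and 2 to 9 with 1 library left out (9 without SKO yBM 2 or SKO tumor 3, 5 without DKO yBM 3). For set 1, 19 in the reported fit, it was 81 with a pseudocount of 0.1, 9 without the filter, 4 with median-ratio scaling, 6 when the fit held the compared libraries alone, 1 with the 4-month yBM libraries alone and 0 to 319 with 1 library left out (319 without tumor 1, 191 without yBM 3, 12 without tumor 3, 0 or 1 without any other). The cause was not tested.

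Genes near 0 turned direction, with limma adjusted p of 1 throughout. Mcm7 was at -0.018 with median-ratio scaling, -0.60 with the copy pattern and -0.15 with Ddx3y as a covariate, and at -0.19 to 0.38 with 1 library left out, below 0 without DKO yBM 2, tumor 1 or tumor 2. Rrp9 was at -0.33 with the copy pattern, and at -0.071 to 0.52 with 1 library left out, below 0 without DKO tumor 1 or 2. With 1 library left out, Ran was at -0.25 to 0.058, above 0 without DKO tumor 3, and Mylk at -1.89 to 0.16, above 0 without DKO yBM 2 or DKO tumor 2. Depth limits are unknown, since TPM hold no read numbers.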
